A study of Homo sapiens with 12 samples.

Results

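The comparison described here is the difference between the everolimus effects of 2 breast cancer lines, that is (BT-549 in everolimus minus BT-549 in DMSO) minus (MDA-MB-231 in everolimus minus MDA-MB-231 in DMSO), taken gene by gene. All genes that the array annotation pairs with a single symbol were eligible, which are 20046 genes. Of these, 11764 had a probe above background and were tested. A gene was kept apart where its mean log2 signal in DMSO was under 6.8 in a line, since a fall from there cannot be seen. This left 8920 genes with a baseline above background in both lines, 896 at background in MDA-MB-231 alone, 958 at background in BT-549 alone and 990 at background in both.

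Both lines are established human lines, labelled as triple negative breast cancer. Cells of each line received 10 uM everolimus or DMSO, its solvent, for 48 h, and their total RNA was hybridised to Illumina bead arrays. There were 3 arrays in each of the 4 groups, MDA-MB-231 in DMSO, MDA-MB-231 in everolimus, BT-549 in DMSO and BT-549 in everolimus. The labels do not say whether the replicates are separate cultures, so every p-value reflects the spread among these samples alone, and that spread may be technical. Each line stands for 1 cancer, and a difference between them is a difference between these lines at 1 dose and 1 time.

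Everolimus binds the small protein FKBP12, and the pair docks on the kinase mTOR and blocks above all its complex mTORC1. This complex couples growth factor and amino acid supply to protein synthesis, ribosome production, glycolysis and lipid synthesis, and it holds back autophagy. Breast cancer lines are known to differ widely in how strongly they answer to mTOR inhibitors.

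The arrays bore out the labelled class for the hormone receptor genes only. The receptor genes ESR1 and PGR had group means of 6.49 to 6.69, all under the background floor of 6.77. ERBB2 lay above the floor, between 8.33 and 9.0. With no line of another class on the arrays, they could not decide whether this level matches the label. The epithelial keratin KRT19 was high in MDA-MB-231 (10.26 in DMSO) and at background in BT-549 (6.65), and the mesenchymal cadherin CDH2 was the reverse, at 6.63 and 11.96. Other markers did not all divide the lines in this way. The epithelial EPCAM and KRT8 did (7.91 and 9.25 against 6.57 and 6.59 in DMSO), but CDH1 and KRT5 were at background in all 4 groups. The mesenchymal ZEB1 was at background in all 4 too, and FN1 in DMSO in both lines (6.66 and 6.58). SNAI2 was expressed in both (8.76 and 9.24 in DMSO). VIM, the mesenchymal filament gene, was high in all 4 groups, at 13.73 to 14.32, and the leukocyte genes PTPRC and CD3E were at background in all 4. The monocyte gene CD14 lay above the floor in all 4, at 6.81 to 7.56. CD68, a lysosomal gene best known from macrophages, lay between 8.94 and 11.99. The endothelial gene VWF (7.65) and the globin gene HBA2 (7.36) stood above the floor only in the BT-549 everolimus group mean, and their part in the results was not tested. The endothelial PECAM1 and CDH5 and the globin genes HBB and HBA1 lay under the floor in all 4 group means, at 6.48 to 6.75. In every group the array numbered replicate 1 lay furthest from its group mean, and most so in BT-549 with everolimus, where the SD of its deviations over genes was 0.393, against 0.217 and 0.227 on the other arrays of that group.

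In BT-549 everolimus lowered the RNA of the glycolytic enzymes PGAM1 and PGK1, the nuclear lamina gene LMNB1 and the cell cycle kinase gene CDK2, none of which was called in MDA-MB-231. It raised the guidance gene SLIT2, the death inhibitor gene CFLAR and the receptor gene IGF2R in BT-549, again with no call in MDA-MB-231. The collagen gene COL1A2 fell and the coregulator gene CITED4 rose in BT-549, and both were at background in MDA-MB-231, where a fall could not have been seen. TFPI, a clotting inhibitor, moved in opposite directions in the lines, and PTK6, a tyrosine kinase gene, rose in MDA-MB-231 alone among its tested effects. Here a gene is called, or is said to rise or fall, where limma's moderated test gave a Benjamini-Hochberg adjusted p under 0.05 over all 11764 genes. Limma called the difference between lines in 75 of 11764 genes (0.638%). It lay above 0, so that BT-549 moved further up or less far down, in 37 (0.315%), and below 0 in 38 (0.323%). The size was at least 1 log2 unit in 22 and 26 of them. Without adjustment 1842 genes had p under 0.05, and the median standard error of a difference was 0.219.

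The size of this list depended on single arrays. Limma called 0 differences where MDA-MB-231 lost DMSO replicate 2 (1493 with an unadjusted p under 0.05), DMSO replicate 3 (1458), everolimus replicate 2 (1496) or everolimus replicate 3 (1613), and 0 where BT-549 lost DMSO replicate 2 (1419). With 1 array of BT-549 left out it called 2 (everolimus replicate 3), 11 (DMSO replicate 1), 16 (everolimus replicate 2) and 1219 (everolimus replicate 1), and 31 where the array was MDA-MB-231 everolimus replicate 1. The count stayed near 75 without MDA-MB-231 DMSO replicate 1 (64) and without BT-549 DMSO replicate 3 (87). Without all 4 arrays numbered 1 it called 2345 (19.9%), 1459 above 0 (12.4%) and 886 below 0 (7.53%), and all 75 were among them. Those 4 arrays lay furthest from their group means, so leaving them out tends to narrow the spread behind each p. The calls of that fit are thus no separate support. The sign of each of the 75 differences was kept in each of these fits, whereas each call was kept in 1 to 7 of the 12 fits that left out 1 array. These fits reuse the arrays on which the 75 were called, so a kept sign is no separate support. With each array shifted to the same median over the tested genes the split of calls was 23 above 0 and 42 below 0, and with the background peak subtracted it was 10 and 4. The median difference of all tested genes was 0.05.

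Most of the 75 genes moved in BT-549 and little in MDA-MB-231. The effect in BT-549 was the larger in absolute size in 69 genes and the effect in MDA-MB-231 in 6, which are TFPI, TVP23B, PTK6, TMEM230, TSPAN3 and KIAA0408. In 48 genes the MDA-MB-231 effect lay within 0.2 of 0. In 18 both effects were larger than that with opposite signs, and in 8 with the same sign. Limma called the BT-549 effect and not the MDA-MB-231 effect in 71, both in TFPI and COQ8A, the MDA-MB-231 effect alone in PTK6, and neither in KIAA0408. The everolimus and DMSO arrays of BT-549 did not overlap in 74 of the 75 genes (32.7% of all tested genes did not overlap), and those of MDA-MB-231 in 20 (18.6%). These effects enter the difference itself, so the counts describe the 75 genes and are no further test of them. Called effects numbered 1972 of 11764 (16.8%) in BT-549 and 18 (0.153%) in MDA-MB-231. These counts also moved with the arrays, to between 795 (without BT-549 DMSO replicate 2) and 3289 (without BT-549 everolimus replicate 1) in BT-549 and to between 0 and 125 in MDA-MB-231 with 1 array left out, and to 4498 and 806 without the 4 arrays numbered 1.

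**Figure D1:**
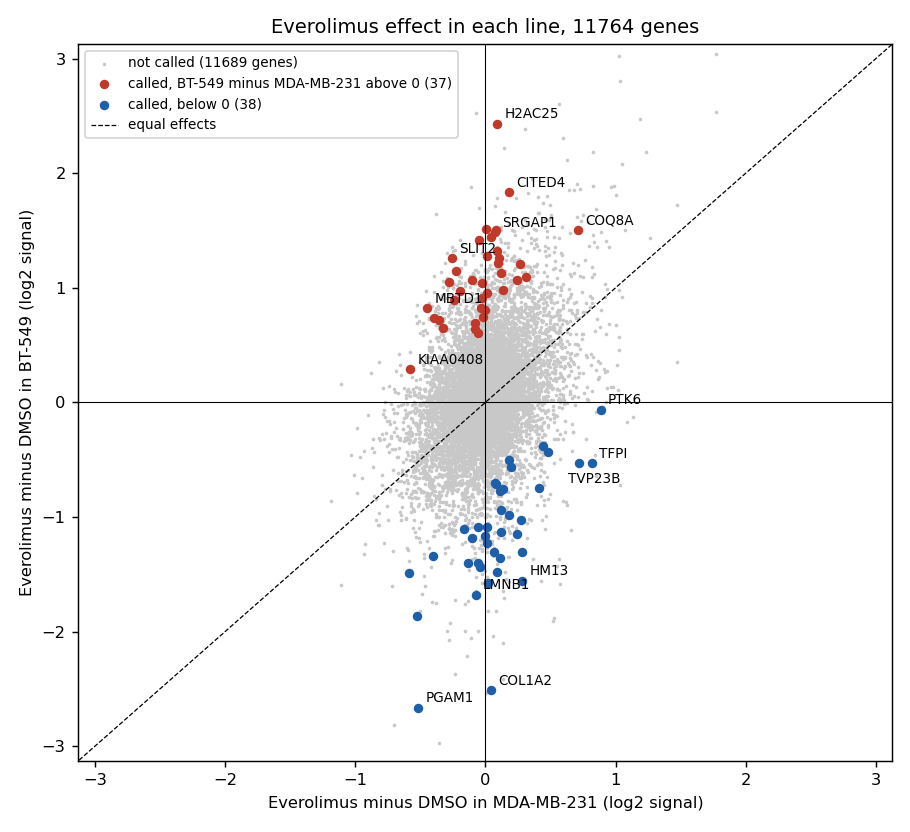
Everolimus effect of each of the 11764 tested genes in MDA-MB-231 (horizontal axis) and in BT-549 (vertical axis), both as log2 signal in everolimus minus DMSO, with 3 arrays per group. The 37 called genes above the dashed line of equal effects are red, the 38 below it are blue, and most lie near 0 on the horizontal axis and away from 0 on the vertical one.

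Glycolysis turns glucose into pyruvate, and PGAM1 and PGK1, enzymes of its later steps, were among the called falls. PGAM1 encodes the phosphoglycerate mutase of most tissues. Its log2 signal was 10.92, 10.51 and 10.24 in BT-549 with DMSO and 8.33, 7.84 and 7.51 with everolimus. In MDA-MB-231 it was 10.89, 10.39 and 10.34 with DMSO and 10.25, 10.03 and 9.79 with everolimus. The lines thus started at like levels, and in both the everolimus arrays lay below all DMSO arrays, far lower in BT-549 than in MDA-MB-231. The fall was -2.66 in BT-549 (adjusted p = 0.000301), the MDA-MB-231 effect was -0.52 (adjusted p = 0.487), and the difference was -2.15 (SE 0.34, limma adjusted p = 0.0392), with -2.55 on a second probe. PGAM4, a near copy of PGAM1 whose probes may read PGAM1 RNA, had a difference of -1.34 (SE 0.19, adjusted p = 0.0269), with -2.19, -1.23 and -0.16 on its other probes.

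PGK1 encodes phosphoglycerate kinase, which makes ATP one step before the mutase. It stood at 12.30, 12.03 and 11.69 in BT-549 with DMSO and at 11.09, 10.59 and 10.42 with everolimus. In MDA-MB-231 the values were 11.54, 11.76 and 11.51, then 11.67, 11.75 and 11.59. The BT-549 groups were apart and the MDA-MB-231 groups overlapped, with effects of -1.31 (adjusted p = 0.00198) and 0.07 (0.97) and a difference of -1.37 (SE 0.26, adjusted p = 0.0482). P4HA1, a subunit of the prolyl hydroxylase that readies collagen chains for folding, is induced by low oxygen like PGK1. It fell in BT-549 from 10.30, 9.99 and 9.38 to 8.28, 8.41 and 8.54, which is the level seen in MDA-MB-231 in both groups (8.32 to 8.71). Its difference was -1.57 (SE 0.29, adjusted p = 0.0448).

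The promoter windows of PGK1 and P4HA1, as RefSeq gives them for GRCh38.p14 from 250 bases before to 50 bases after the gene's start, are shown because both genes are known targets of the hypoxia-inducible factors. Capitals mark each ACGTG, one form of the core that these factors read, on either strand (CACGT where it lies on the other strand). Other forms of the core were neither marked nor counted. The PGK1 window is chrX:78103998-78104297 on the plus strand and the P4HA1 window is chr10:73096817-73097116 on the minus strand, both written 5′ to 3′ in the direction of transcription.
PGK1: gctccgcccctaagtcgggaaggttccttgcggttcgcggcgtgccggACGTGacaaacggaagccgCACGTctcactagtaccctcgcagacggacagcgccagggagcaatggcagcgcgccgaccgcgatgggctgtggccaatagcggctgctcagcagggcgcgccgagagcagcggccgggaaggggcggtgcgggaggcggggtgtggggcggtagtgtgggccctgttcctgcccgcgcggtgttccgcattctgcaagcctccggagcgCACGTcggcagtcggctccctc
P4HA1: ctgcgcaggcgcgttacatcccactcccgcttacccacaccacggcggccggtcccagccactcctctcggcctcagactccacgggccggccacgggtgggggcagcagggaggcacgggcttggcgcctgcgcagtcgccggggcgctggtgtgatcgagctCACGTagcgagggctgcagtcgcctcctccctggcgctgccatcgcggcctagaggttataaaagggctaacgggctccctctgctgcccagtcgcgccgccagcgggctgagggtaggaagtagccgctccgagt
The PGK1 window holds 3 matches and that of P4HA1 holds 1. The PGAM1 window in the same table, which may not be the start used in these cells and is not shown, holds 0. At least 1 match is held by 24.9% of the 27305 windows of this length, and of the 9426 tested genes with a window 32.6% do. The share was 38.5% of 26 genes called below 0 and 37.5% of 32 called above 0. A match describes the letters of the window and does not show binding.

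Of the 21 tested genes on the glycolysis list, PGAM1 and PGK1 were called below 0 and none above, beside 0.323% and 0.315% of all tested genes. LDHA, the lactate dehydrogenase that ends fermentative glycolysis, had a difference of -0.88 and just missed the threshold (adjusted p = 0.0647). The median of the list was -0.11, with a range of -0.21 to 0.05 over the alternatives, so most members did not share the size of these falls. Without the 4 arrays numbered 1, limma called 3 members above 0 and 3 below 0, beside 12.4% and 7.53% of all tested genes. Above 0 were SLC2A1, HK2 and PFKP, at the entry to the pathway, and below 0 PGK1, PGAM1 and LDHA, at its later steps. This order by step was seen only after the values were known and was not tested. The hypoxia list had 15 tested members, 1 of them called (P4HA1) and 10 below 0, with a median of -0.28, beside 0.05 over all tested genes. That median ranged from -0.87 (background peak subtracted) to -0.10 (without the 4 arrays numbered 1) over the alternatives, and without those 4 arrays limma called 3 members above 0 and 4 below. With 1 array left out it moved most for BT-549 DMSO replicate 3 (-0.70), BT-549 everolimus replicate 3 (-0.42), MDA-MB-231 DMSO replicate 3 (-0.18) and BT-549 DMSO replicate 1 (-0.14).

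**Figure D2:**
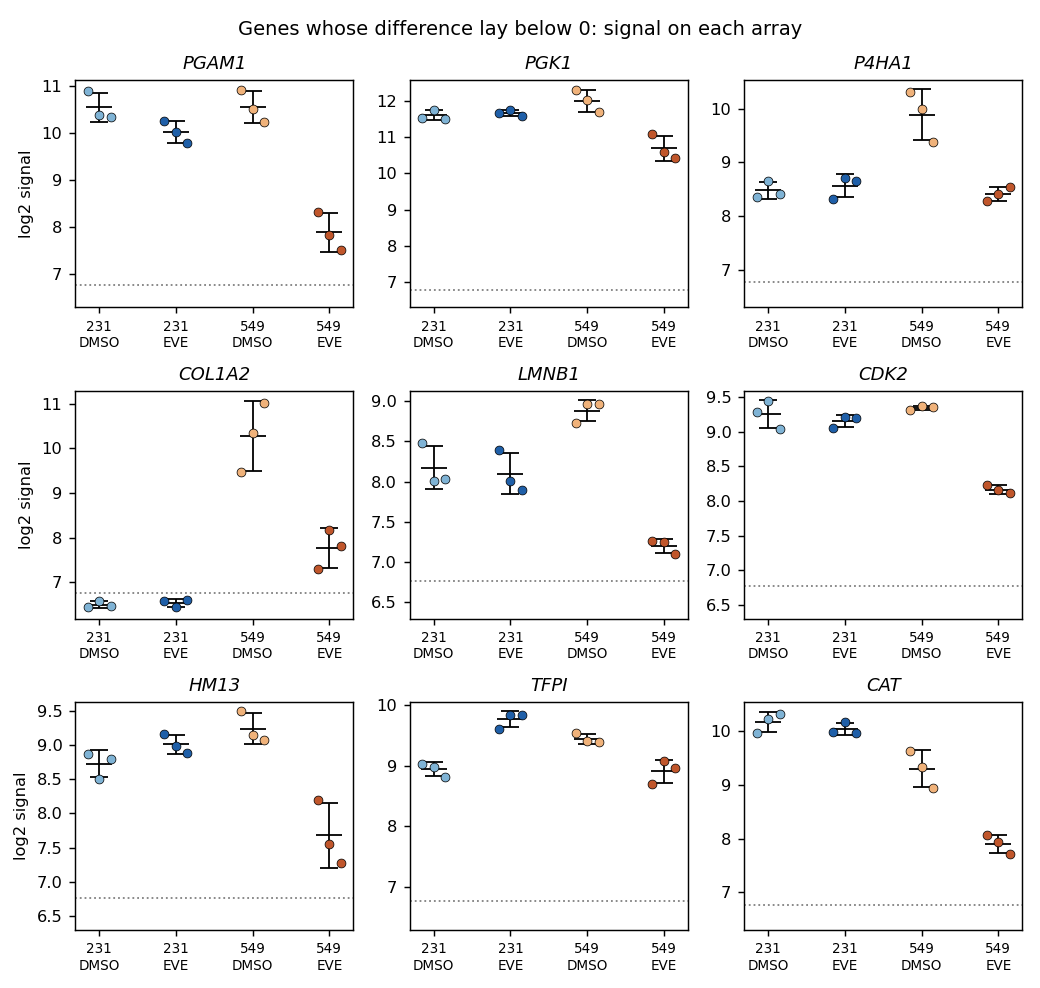
Log2 signal on each of the 12 arrays for genes whose difference lay below 0, with the mean and SD of each group of 3 and a dotted line at the background floor of 6.77. PGAM1 drops from about the same DMSO level in both lines to 7.51 to 8.33 in BT-549, and TFPI moves in opposite directions in the lines.

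LMNB1 and CDK2 also fell in BT-549. LMNB1 encodes lamin B1, a filament protein of the nuclear lamina. Its signal was 8.73, 8.96 and 8.96 in BT-549 with DMSO and 7.26, 7.25 and 7.10 with everolimus, against 8.48, 8.01 and 8.03 and then 8.39, 8.01 and 7.90 in MDA-MB-231. The BT-549 groups stood wide apart and those of MDA-MB-231 overlapped almost fully, and the difference was -1.61 (SE 0.22, adjusted p = 0.0269). CDK2, the kinase that drives entry into and passage through S phase, stood at 9.32, 9.37 and 9.36 with DMSO and 8.23, 8.16 and 8.11 with everolimus in BT-549, and between 9.04 and 9.44 on all MDA-MB-231 arrays. Its difference was -1.08 (SE 0.15, adjusted p = 0.0269), with -0.37 on a second probe. CDK2 was the only one of 20 tested genes of the G1/S list that limma called, beside 0.638% of all tested genes.

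Translation and respiration gave 1 called gene each. EIF5, the factor that triggers GTP hydrolysis in the initiation complex at the start codon, fell in BT-549 from 9.88, 9.81 and 9.80 to 8.44, 8.53 and 8.44. In MDA-MB-231 it was 10.35, 9.68 and 9.56 with DMSO and 10.10, 9.92 and 9.90 with everolimus. The difference was -1.47 (SE 0.24, adjusted p = 0.0392), but only -0.08 and -0.21 on other probes of the gene. UQCRB, a subunit of respiratory complex III, fell by 1.34 in BT-549 (adjusted p = 0.000252) beside an uncalled -0.40 in MDA-MB-231. Its difference of -0.94 (SE 0.17, adjusted p = 0.0432) was not seen on its other probes, at 0.00 and -0.02.

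The further falls were of single genes with various roles. HM13, the signal peptide peptidase of the endoplasmic reticulum, was 9.49, 9.14 and 9.07 in BT-549 with DMSO and 8.20, 7.55 and 7.28 with everolimus, and 8.50 to 9.16 on all MDA-MB-231 arrays. The difference was -1.84 (SE 0.30, adjusted p = 0.0392), while a second probe gave 0.35, so the probes of HM13 disagree. CAT encodes catalase, which breaks down hydrogen peroxide. It fell in BT-549 from 9.64, 9.33 and 8.94 to 8.06, 7.93 and 7.72 and lay between 9.96 and 10.33 in MDA-MB-231, a difference of -1.27 (SE 0.25, adjusted p = 0.0499), with -1.59 on a second probe. PON2, an antioxidant lactonase of cell membranes named after its values were seen, fell by 0.94 in BT-549 from a baseline far above that of MDA-MB-231 (10.65, 10.65 and 10.79 against 7.21, 7.29 and 7.40). TMEM14A, a small membrane protein gene, had a difference of -1.60 (SE 0.29, adjusted p = 0.0448). SH3KBP1, an adaptor in the endocytosis of growth factor receptors, had -1.34 (SE 0.25, adjusted p = 0.0448).

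The remaining named falls are given with the other probes of each gene. MAP3K20, a kinase of the ribotoxic stress response, had a difference of -1.59 (adjusted p = 0.0448), with 0.10 and -0.65 on other probes. ITM2B, a membrane protein gene known from familial dementias, had -1.39 (adjusted p = 0.0432) and 0.03 on a second probe. CIDECP1 is a pseudogene, with -1.39 (adjusted p = 0.0392) and 0.07 on a second probe. PEDS1-UBE2V1 is a read-through transcript of neighbouring genes, with -1.30 (adjusted p = 0.0392) and -1.07. Over all 75 called genes 40 had no other probe above the floor, 28 had other probes of the same sign and 7 had another probe of the opposite sign.

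TFPI stood alone in being called in both lines in opposite directions. It encodes tissue factor pathway inhibitor, which blocks the start of clotting. In MDA-MB-231 it went from 9.03, 8.98 and 8.81 with DMSO to 9.61, 9.83 and 9.84 with everolimus. In BT-549 it went from 9.53, 9.40 and 9.39 to 8.70, 9.07 and 8.96. Neither pair of groups overlapped. The rise in MDA-MB-231 was 0.82 (adjusted p = 0.0337) and the fall in BT-549 -0.53 (adjusted p = 0.0142), so that the order of the lines turned round with the drug. The difference was -1.35 (SE 0.17, adjusted p = 0.0257), and 2 other probes gave -1.16 and -0.50.

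Further genes with effects of opposite sign were named after their values were seen. TVP23B, a Golgi membrane protein gene, fell in BT-549 (-0.53, adjusted p = 0.0474) and had 0.72 in MDA-MB-231, where it was not called (0.108). The vesicle membrane gene TMEM230 had -0.44 and 0.48, and the tetraspanin gene TSPAN3 -0.38 and 0.44, each called in BT-549 alone. NCKAP1, a subunit of the WAVE complex that starts branched actin, had -0.75 in BT-549 and 0.41 in MDA-MB-231. In the other direction MBTD1, a chromatin reader of the TIP60 acetyltransferase complex, rose by 0.82 in BT-549 (adjusted p = 0.00773) and had -0.45 in MDA-MB-231 (0.318), a difference of 1.27 (SE 0.23, adjusted p = 0.0432) that was 0.35 on a second probe. ZBTB2, a zinc finger repressor, had 0.74 and -0.39 and a difference of 1.13 (SE 0.21, adjusted p = 0.0448).

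COQ8A rose in both lines, with effects of unequal size. Its product is an atypical kinase needed to make coenzyme Q. It stood at 8.34, 8.47 and 8.37 in MDA-MB-231 with DMSO and at 9.0, 9.13 and 9.18 with everolimus, and at 8.25, 8.36 and 8.33 and then 9.74, 9.82 and 9.90 in BT-549. The baselines overlapped and the everolimus levels did not, and the rises of 0.71 and 1.51 differed by 0.80 (SE 0.13, adjusted p = 0.0392).

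SLIT2, ARHGAP39 and SRGAP1 were among the largest rises. SLIT2 encodes a secreted guidance protein that binds Robo receptors and repels growing axons. It went from 8.21, 8.01 and 8.27 in BT-549 with DMSO to 9.34, 9.45 and 9.48 with everolimus, against 8.0, 7.79 and 7.57 and then 7.84, 7.34 and 7.41 in MDA-MB-231. The BT-549 groups were more than 1 unit apart and the MDA-MB-231 groups overlapped, and the difference was 1.52 (SE 0.21, adjusted p = 0.0269). SRGAP1, a GTPase-activating protein that acts below Slit and Robo, went from 7.29, 7.67 and 7.81 to 9.27, 8.91 and 9.04 in BT-549 and lay between 7.63 and 7.80 on all 6 MDA-MB-231 arrays. Its difference was 1.41 (SE 0.19, adjusted p = 0.0269). ARHGAP39, a GTPase-activating protein that acts with Robo in flies, went from 8.81, 8.90 and 9.15 to 10.13, 10.34 and 10.65, with a difference of 1.47 (SE 0.23, adjusted p = 0.0392). No list of Slit signalling was tested, and these genes were set side by side after their values were seen.

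CFLAR, IGF2R and RHOBTB3 rose as well. CFLAR encodes FLIP, the caspase-like protein that blocks death receptor signalling. Its signal was 6.99, 7.10 and 7.41 in BT-549 with DMSO and 8.33, 8.59 and 9.09 with everolimus, and 7.49 to 7.83 on all MDA-MB-231 arrays. The difference was 1.42 (SE 0.26, adjusted p = 0.0448). IGF2R, the receptor that carries lysosomal enzymes and removes insulin-like growth factor 2, went from 10.70, 10.67 and 10.87 to 11.93, 11.90 and 12.18 in BT-549, whereas its MDA-MB-231 groups overlapped (9.81 to 10.42 with DMSO and 10.02 to 10.31 with everolimus). Its difference was 1.15 (SE 0.22, adjusted p = 0.0482). RHOBTB3, which encodes a Golgi protein, rose from 8.29, 8.41 and 8.65 to 9.48, 9.84 and 10.00 in BT-549, towards the level of MDA-MB-231 (10.27 to 10.66), with a difference of 1.24 (SE 0.22, adjusted p = 0.0432).

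The other large rises were of single genes with various roles. HSCB, a mitochondrial chaperone of iron-sulphur cluster assembly, had a difference of 1.38 (SE 0.20, adjusted p = 0.0286), with 0.25 on a second probe. ST6GALNAC6, a sialyltransferase of gangliosides, had 1.18 (SE 0.18, adjusted p = 0.0389). UAP1L1, a relative of the enzyme that makes the donor sugar of glycosylation, had 1.39 (SE 0.18, adjusted p = 0.0257), but -0.03 on a second probe. LRRFIP1, a nucleic acid binding repressor, had 1.32, the zinc finger gene ZNF69 had 1.16 (0.25 on a second probe) and the RNA-binding protein gene LARP4B had 1.13 (adjusted p = 0.0392, 0.0448 and 0.0448). MIR100HG, the host transcript of a microRNA cluster, had 1.27 (SE 0.23, adjusted p = 0.0448).

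**Figure D3:**
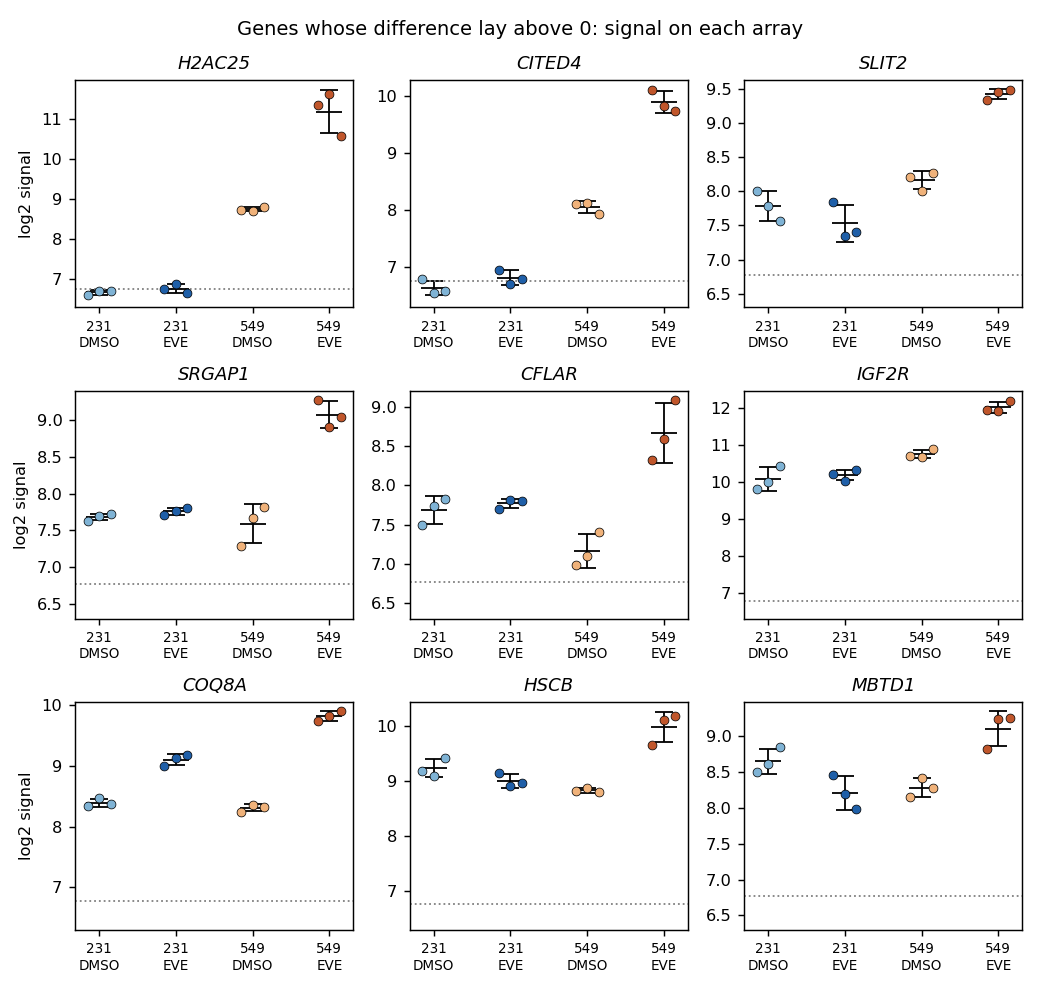
Log2 signal on each of the 12 arrays for genes whose difference lay above 0, with the mean and SD of each group of 3 and a dotted line at the background floor of 6.77. In most panels the BT-549 everolimus arrays lie above the BT-549 DMSO arrays while the MDA-MB-231 groups overlap, whereas COQ8A rises in both lines.

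Of the genes kept apart for a baseline at background, limma called 12 of 2844 (0.422%), 7 above 0 (0.246%) and 5 below 0 (0.176%). They were 9 of the 896 genes at background in MDA-MB-231 alone (1.00%), 1 of 958 at background in BT-549 alone (0.104%) and 2 of 990 at background in both (0.202%), beside 63 of 8920 genes with both baselines above background (0.706%). For the 9, MDA-MB-231 had no level from which a fall could be read, and the difference also holds the small change of its background signal. A gene was tested only where at least 3 arrays exceeded the floor. For H2AC4 and ARIH2OS, the 2 called genes at background in both lines, all 3 arrays of a group did so only in BT-549 with everolimus. Their calls, and the shares of genes at background, thus depend in part on the effect itself.

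COL1A2, the second chain of type I collagen, had the largest difference of them. It stood at 9.46, 10.34 and 11.02 in BT-549 with DMSO and at 7.3, 8.18 and 7.81 with everolimus, and no MDA-MB-231 array exceeded the floor (6.44 to 6.60). The replicates varied widely and the groups still did not overlap, with an effect of -2.51 (adjusted p = 0.00139) and a difference of -2.55 (SE 0.46, adjusted p = 0.0448), though only -0.99 on a second probe. THBS2, a matrix glycoprotein that restrains vessel growth, went from 8.33, 8.25 and 8.29 to 7.78, 7.44 and 7.33, with a difference of -0.89 (SE 0.17, adjusted p = 0.0482). RGS5, a brake on G protein signalling best known from pericytes, went from 8.78, 8.87 and 9.04 to 7.67, 8.05 and 7.72, with -1.10 (SE 0.16, adjusted p = 0.0271). ZNF667-AS1, an antisense transcript, had -1.03 (SE 0.19, adjusted p = 0.0448).

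Among the differences above 0 in these genes H2AC25 and CITED4 had the largest, and both were at background in MDA-MB-231 but not in BT-549. H2AC25 encodes a histone H2A, of a family whose near-identical members share sequence, so its probe may read relatives. It went from 8.72, 8.71 and 8.80 to 11.35, 11.61 and 10.57 in BT-549, and the MDA-MB-231 arrays lay at 6.61 to 6.89, with a difference of 2.34 (SE 0.29, adjusted p = 0.0257). CITED4, a coregulator that binds the coactivators CBP and p300, went from 8.10, 8.12 and 7.93 to 10.10, 9.82 and 9.74, and MDA-MB-231 lay at 6.55 to 6.96. Its difference of 1.66 (SE 0.17) had the smallest adjusted p of all genes, 0.015, and with H2AC25 it kept its call in the most fits that left out 1 array, 7 of 12. NKD2, an inhibitor of Wnt signalling, had a difference of 1.51 (SE 0.27, adjusted p = 0.0432) with BT-549 baselines that ranged from 6.91 to 7.82. SLIT3, a relative of SLIT2, went from 7.49, 7.70 and 7.75 to 8.35, 8.35 and 8.48, a difference of 0.77 (SE 0.14, adjusted p = 0.0448) that was 0.13 on a second probe. CERS1, a ceramide synthase, had 0.95 and the antisense transcript ARIH2OS 0.78 (adjusted p = 0.0271 and 0.0432). The baseline of ARIH2OS was at background in both lines.

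PTK6, also called BRK, is a cytoplasmic tyrosine kinase found in many breast tumours, and it was the one called gene at background in BT-549 alone. It went from 7.03, 7.31 and 7.38 to 8.11, 8.06 and 8.21 in MDA-MB-231, and no BT-549 array exceeded the floor (6.41 to 6.64). The rise was 0.89 (adjusted p = 0.0229) and the difference -0.95 (SE 0.16, adjusted p = 0.0392), with -0.25 on a second probe.

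**Figure D4:**
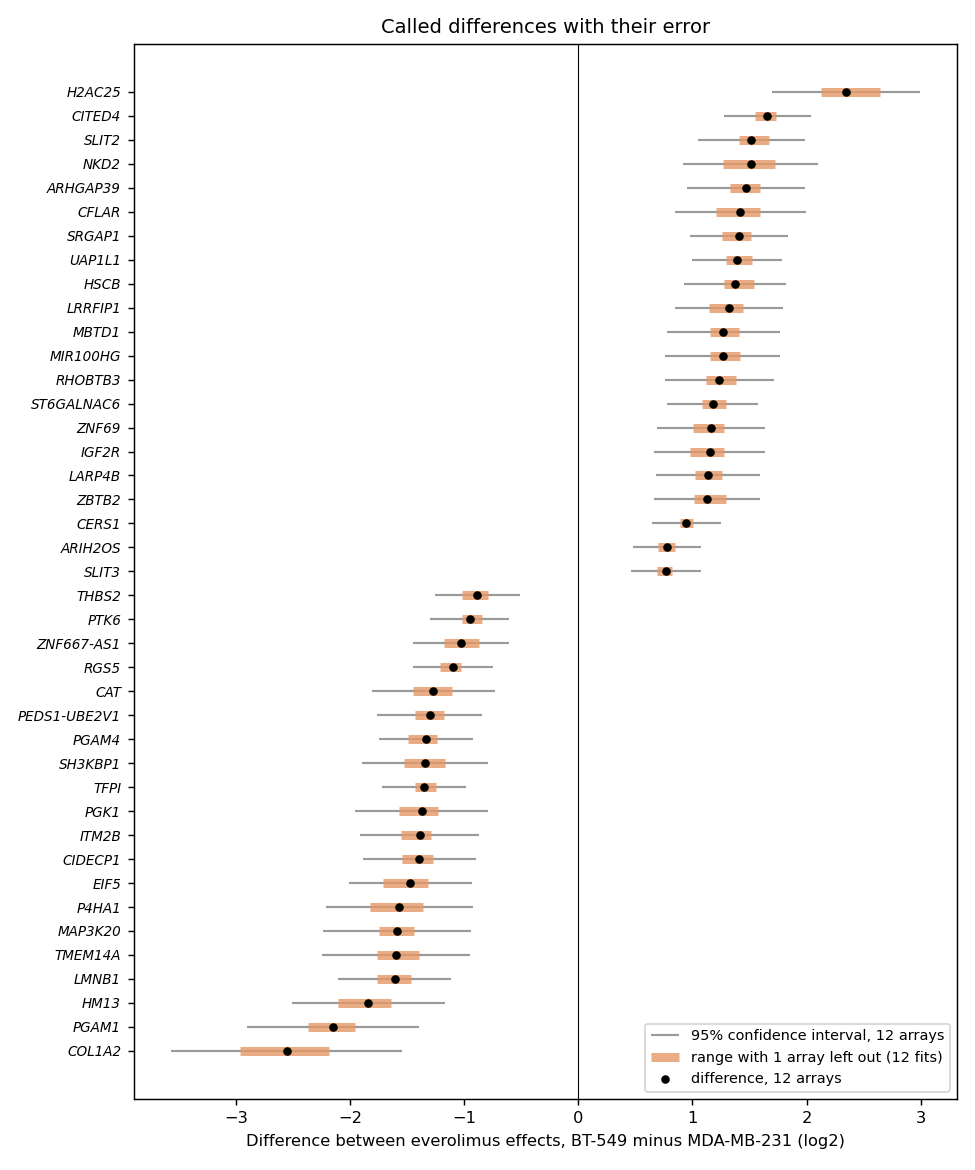
Difference between the everolimus effects, BT-549 minus MDA-MB-231, in log2 signal for the largest called differences each way, as points with 95% confidence intervals (grey lines) from the fit to all 12 arrays. Orange bars are the range of the difference over the 12 fits that left out 1 array. The genes run from COL1A2 at -2.55 to H2AC25 at 2.34, and no orange bar reaches 0. The genes were chosen by the fit to all 12 arrays, which the other fits reuse in large part.

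The series title names SUV39H1, which methylates lysine 9 of histone H3, and its RNA was not shown to depend on the line. With everolimus it went from 8.56, 8.52 and 8.43 to 7.76, 7.39 and 7.16 in BT-549 and from 8.95, 8.59 and 8.72 to 7.81, 7.92 and 8.05 in MDA-MB-231. Both pairs of groups were apart and pointed down. The difference was -0.24 (SE 0.21, 95% confidence interval -0.71 to 0.23, adjusted p = 0.623), so that a further fall of 0.71 in BT-549 lies within the interval. Without the 4 arrays numbered 1 the difference was called (-0.53, adjusted p = 0.0472). MTOR had a difference of 0.16 (SE 0.40, -0.73 to 1.04, adjusted p = 0.891), and its sign turned to -0.02 without MDA-MB-231 everolimus replicate 1 and to -0.15 without the BT-549 DMSO array of that number. FKBP1A, the gene of FKBP12, had -0.37 (SE 0.31, adjusted p = 0.601), with -1.16, -0.20 and -1.32 on its other probes.

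The 36 gene lists hold 849 tested genes, of which limma called 11, 1 above 0 (H2AC25) and 10 below 0, beside 0.315% and 0.323% of all tested genes. They lie in 9 lists, and the other 27 lists had 0 called members, with 0 to 10 members at an unadjusted p under 0.05. Over all tested genes 1842 of 11764 had such a p, and the median difference was 0.05. Called members are thus too few to describe most lists. The medians are therefore given, with the calls without the 4 arrays numbered 1. In that fit 12.4% of all genes were called above 0 and 7.53% below 0. Those 4 arrays lay furthest from their group means, so that fit tends to a narrower spread by its choice of arrays. Its calls are given as values and are no separate support. The median kept its sign under every alternative that was run in 19 of the 36 lists. Among these are folding in the endoplasmic reticulum, hypoxia, the respiratory chain, ATF4, histones, ERK feedback, small nucleolar RNA hosts and ribosome biogenesis.

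Genes for folding proteins in the endoplasmic reticulum had the lowest median difference of the 36 lists, -0.46, which was -0.29 without BT-549 everolimus replicate 1 and -0.28 with no floor. Of 21 tested members 17 lay below 0, while the median difference of all tested genes was 0.05. Limma called 0 (8 at an unadjusted p under 0.05, beside 1842 of all 11764 tested genes). The median effect was -0.40 in BT-549 and -0.03 in MDA-MB-231. XBP1, the transcription factor spliced in the unfolded protein response, had a difference of -1.30 (adjusted p = 0.133) and the disulphide isomerase PDIA6 -1.55 (adjusted p = 0.184). Without the 4 arrays numbered 1, limma called 5 below 0 (HSP90B1, PDIA6, MANF, XBP1 and EDEM1) and none above. The respiratory chain list had 33 of 42 members below 0 and a median of -0.20, with UQCRB called. In the fit without those arrays it had 11 called below 0 and none above, among them COX5B (-0.86) and NDUFA1 (-0.92).

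Collagen and matrix genes went both ways. Of 31 tested COL1A2 and THBS2 were called below 0. COL1A1, the partner chain of COL1A2, had -1.58 (adjusted p = 0.0771), SPARC, a collagen-binding glycoprotein, -1.94 (0.0738) and the fibrillar collagen COL3A1 -2.10 (0.182), all uncalled. Without the 4 arrays numbered 1 these 3 were called below 0 and COL6A3 and COL7A1 above 0 (1.54 and 1.94). In all 8 members were called below 0 and 6 above 0 in that fit, beside 7.53% and 12.4% of all tested genes.

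The lists with the highest medians were, in order, histones, small nucleolar RNA hosts, ERK feedback, ATF4 targets, tRNA synthetases and ribosome biogenesis. The genes of the ATF4 stress factor and of amino acid supply had a median of 0.40 over 26 members, which fell to 0.13 without MDA-MB-231 everolimus replicate 1, 0.14 and 0.27 without everolimus replicates 3 and 2 of BT-549, and 0.21 with the mean of probes. Limma called 0 of them (5 at an unadjusted p under 0.05, beside 1842 of all 11764 tested genes). Without the 4 arrays numbered 1 it called 11 above 0 and none below, beside 12.4% and 7.53% of all tested genes. Among the 11 were the amino acid transporter genes SLC3A2 (1.5) and SLC7A1 (1.25). Replication-dependent histones had the highest median, 0.57 over 11 members with H2AC25 called (0.92 where MDA-MB-231 lost everolimus replicate 3, 1.13 where BT-549 lost everolimus replicate 1), and 7 called above 0 in that fit. Genes of ERK feedback had a median of 0.48 over 19 members and 0 calls (3 at an unadjusted p under 0.05), and 8 above 0 in that fit, among them the ETS factor ETV4 (1.48) and the early response gene IER3 (1.85). Host transcripts of small nucleolar RNAs had 0.48 over 15 members and 0 calls (7 at an unadjusted p under 0.05), and ribosome biogenesis 0.29 over 30 with 0 calls (8). The last fell to 0.165 without BT-549 DMSO replicate 1 and to 0.13 without the 4 arrays numbered 1. The tRNA synthetases had 0.295 over 16 members with 0 calls (4), and translation initiation followed with 0.23 over 28, of which EIF5 alone was called, below 0.

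**Figure D5:**
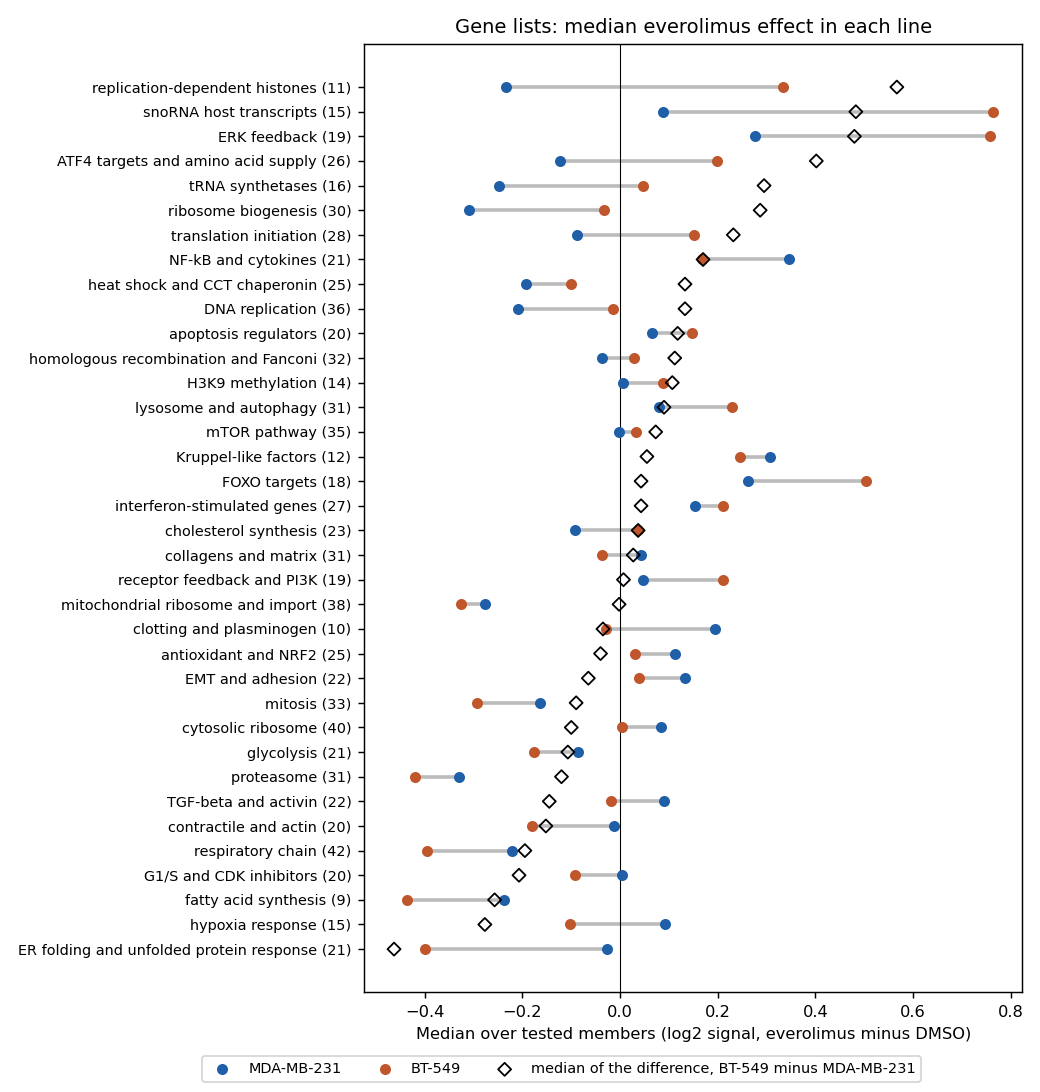
Median everolimus effect over the tested members of each of the 36 gene lists in MDA-MB-231 (blue) and BT-549 (orange), in log2 signal, with the median of the members' differences as open diamonds and the number of tested members in brackets. The diamonds run from -0.46 for folding in the endoplasmic reticulum to 0.57 for histones.

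Components of the mTOR pathway had a median difference of 0.07 over 35 members, close to that of all genes, with a range of -0.04 to 0.12 over the alternatives. Limma called 0 (10 at an unadjusted p under 0.05, beside 1842 of all 11764 tested genes). RRAGA, a Rag GTPase that brings mTORC1 to the lysosome, came nearest to a call with -0.97 (adjusted p = 0.0738). MAPKAP1, a subunit of mTORC2, had -1.04 (0.0966) and DDIT4, a stress-induced brake on mTORC1, -2.11 (0.134). Without the 4 arrays numbered 1 these 3 were called below 0, with -1.11 (RRAGA), -1.06 (MAPKAP1) and -2.08 (DDIT4), and 7 members above 0, among them the Rag GTPase gene RRAGD (1.53) and SGK1, a kinase that mTORC2 activates (1.08). These counts of 35 members stand beside 7.53% below 0 and 12.4% above 0 of all tested genes.

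The list of homologous recombination and Fanconi genes, which the title's subject concerns, had a median of 0.11 over 32 members, with a range of -0.004 to 0.24 over the alternatives. Limma called 0 (6 at an unadjusted p under 0.05, beside 1842 of all 11764 tested genes). XRCC2, a gene of this repair pathway, missed the threshold with 1.21 (adjusted p = 0.0518), and its second probe gave 0.09. Without the 4 arrays numbered 1 limma called 5 members above 0, XRCC2 and the BRCA1 partner gene BARD1 (1.2) among them, and 3 below. These counts of 32 members stand beside 12.4% above 0 and 7.53% below 0 of all tested genes.

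Members of the remaining lists with the smallest p, none called, are given as values. PSMC4, an ATPase of the proteasome, had -2.23 (adjusted p = 0.104), with -1.71 and -1.51 on other probes. MRPL47 of the mitochondrial ribosome had -1.37 (0.0673), the isoleucyl tRNA synthetase IARS1 -1.24 (0.0862), the mitochondrial chaperonin HSPE1 -1.12 (0.0966), the follistatin-like gene FSTL1 -1.13 (0.104) and the mitotic kinesin KIF23 -0.94 (0.143). Second probes gave only -0.10 for MRPL47 and -0.10 for KIF23, and -0.68 for HSPE1. RPL28 of the cytosolic ribosome had 1.15 (0.0673), the small nucleolar RNA host SNHG1 1.33 (0.0738), the sterol enzyme HSD17B7 1.26 (0.0911), the polymerase I subunit POLR1E 1.02 (0.0843) and the ERK phosphatase DUSP6 1.04 (0.109). A second probe gave 0.19 for POLR1E and -0.22 for DUSP6. The autophagy gene BECN1 had -0.66 (0.0862), the primase subunit PRIM2 -0.92 (0.103) and the docking protein GAB2, at background in BT-549, -0.66 (0.121).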

How the data were processed

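The deposited table holds log2 signals of 47230 bead array probes on 12 arrays. RNA was extracted with a mirVana kit and amplified with a TotalPrep kit, per the labels' protocols. The sources used here give no software, background correction or normalization for the deposited log2 values, of which all columns share the same quantiles to within 0.01. A deposited table of unnormalized intensity with 12 columns that match no sample label was not used here.

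The deposited annotation pairs 30113 probes with 1 symbol, 8 with several and lists 17109 not at all. The floor was the background peak (6.55) plus 3 SDs of 0.0724. Probes above it on at least 3 of 12 arrays were kept, and 1 per gene, that with the highest mean. Because background was not subtracted, changes of dim genes are compressed. A model of 4 group means was fitted in limma 3.58.1 (R 4.3.3) to all 12 arrays (8 residual degrees of freedom), tested 2-sided and adjusted by Benjamini-Hochberg over 11764 genes. The pipeline was tested on simulated data. 0 pairs of arrays were identical.

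Named are SUV39H1, MTOR and FKBP1A, the 15 largest called differences each way with both baselines above background, the 6 largest each way with one at background, genes called in opposite directions, and up to 4 called members of each list or the 1 with the smallest p. Other names were chosen after their values were seen. The members, lists and tests were chosen with earlier results of these data known. Same-numbered arrays deviated from their group means with correlations of 0.735, 0.544 and 0.418 (MDA-MB-231) and 0.5, 0.079 and 0.411 (BT-549). The labels do not say whether the numbers pair arrays, and the main fit did not pair them in either line. Alternatives covered the pairing, floor, background, scaling, probe choice, variance model, arrays left out and baseline limit. The number of arrays limits the precision. Sequences are from RefSeq (GRCh38.p14). Figures were drawn with matplotlib 3.10.9.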

Additional observations from a re-analysis of the deposited data

Results flagged for a closer look

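The everolimus effect differed between the lines, by limma's test of the difference itself (BT-549 minus MDA-MB-231, log2), in 75 genes, and the named ones among them are given here. Below 0 with both baselines above background were PGAM1 (-2.15), HM13 (-1.84), LMNB1 (-1.61), TMEM14A (-1.60), MAP3K20 (-1.59), P4HA1 (-1.57), EIF5 (-1.47), CIDECP1 (-1.39), ITM2B (-1.39), PGK1 (-1.37), TFPI (-1.35), SH3KBP1 (-1.34), PGAM4 (-1.34), PEDS1-UBE2V1 (-1.30), CAT (-1.27), CDK2 (-1.08) and UQCRB (-0.94). Below 0 with a baseline at background were COL1A2 (-2.55), RGS5 (-1.10), ZNF667-AS1 (-1.03), PTK6 (-0.95) and THBS2 (-0.89).

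Above 0 with both baselines above background were SLIT2 (1.52), ARHGAP39 (1.47), CFLAR (1.42), SRGAP1 (1.41), UAP1L1 (1.39), HSCB (1.38), LRRFIP1 (1.32), MBTD1 (1.27), MIR100HG (1.27), RHOBTB3 (1.24), ST6GALNAC6 (1.18), ZNF69 (1.16), IGF2R (1.15), LARP4B (1.13) and ZBTB2 (1.13). Above 0 with a baseline at background were H2AC25 (2.34), CITED4 (1.66), NKD2 (1.51), CERS1 (0.95), ARIH2OS (0.78) and SLIT3 (0.77).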

How the results depend on the processing

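All 75 differences kept their sign under each alternative in which they were tested (67 of them under the stricter floor), while the number of calls moved widely. The 75 were chosen on these same arrays, so the kept signs are no further test of them. Limma called 22 under the stricter floor, 14 after subtraction of the background peak, 16 under a trended robust prior, 2362 with array weights, 2345 without the 4 arrays numbered 1, and 0 to 1219 without 1 array. Genes with both baselines above background gave 63 calls, and under these settings 18, 7, 9, 1995, 2030 and 0 to 1003. Genes with a baseline at background gave 12, and 4, 7, 7, 367, 315 and 0 to 216. No floor, equal medians, cyclic loess and the mean of probes gave 62, 65, 61 and 57 calls, within 1.5 times of 75, and baseline limits of 7.0 and 7.3 left the classes at 62 and 13 and at 58 and 17. The cause of these changes was not tested.

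With the replicate number within each line as a block limma called 707 differences (653 with both baselines above background and 54 with one at background), and 305 (281 and 24) with 1 block term across lines. All 75 were among both. Deviations of same-numbered arrays correlated at 0.735, 0.544 and 0.418 in MDA-MB-231 and at 0.5, 0.079 and 0.411 in BT-549. The low value, 0.079, is that of replicate 2, whose DMSO array deviated least of all 12 (SD 0.0822). The labels do not say whether the numbers pair the arrays, and the main fit used no block.

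Of the 43 named genes that were called, over up to 23 alternatives each, 492 values kept the call, 492 lost it and 0 changed sign. A gene that was not tested under the stricter floor has no value there. Of the 30 named genes not called, 101 values gained a call, and MTOR (0.16) lay between -0.153 and 0.402 with 1 array left out (BT-549 DMSO replicates 1 and 3), with -0.023 where MDA-MB-231 lost everolimus replicate 1.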

Other observations

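Probes that the annotation does not pair with a single symbol lie outside the comparison. Of 4774 such probes above the floor, limma called the difference between lines in 16, 9 above 0 and 7 below 0, and 698 had an unadjusted p under 0.05. They are unnamed here.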
